A study of Mus musculus with 2 samples.

Results

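Aminoacyl-tRNA synthetases are the enzymes that join each amino acid to its transfer RNA. Their transcripts were compared in regulatory T (Treg) cells, the CD4 T cells that express Foxp3 and restrain immune responses, sorted from injured mouse muscle. The members were taken by name from the deposited count table: 20 genes of the cytosolic set, 16 genes of the mitochondrial set (symbols ending in 2), and the scaffold genes Aimp1 and Aimp2. All 38 were found among the 23337 symbols of the table. Sums and medians of a set cover its listed members and not every gene of the family.

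The study profiled 2 libraries, 1 for each treatment. Both came from 8-week-old male mice on a C57BL/6 background that carry the Foxp3-IRES-GFP reporter, in which green fluorescent protein marks cells that express Foxp3. In both groups the tibialis anterior, quadriceps and gastrocnemius muscles were the source, after injury by cardiotoxin, a venom protein toxic to muscle fibres. The treatment injected into muscle was rIL-33 (0.3 ug), a recombinant form of an alarm cytokine that injured tissue sets free, or PBS, the saline control. Treg cells were taken 4 days after injury, 5000 per library, and how many mice each library pools was not given in the sources used here. With 1 library per group there is no replicate check. "Higher" and "lower" below compare these libraries, "with IL-33" and "with PBS" name them, and the intervals cover counting error only.

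Each synthetase recognises 1 amino acid and the transfer RNAs that carry it, and the charged transfer RNAs then feed the ribosome. Cells keep one set of enzymes for the cytosol and another, also encoded in the nucleus, for protein synthesis inside mitochondria. Gars and Kars make both forms from a single gene, and mitochondria charge glutamine by another route, so no second Qars exists. In the cytosol, 8 of the enzymes (products of Dars, Eprs, Iars, Kars, Lars, Mars, Qars and Rars) are held with the scaffold proteins encoded by Aimp1, Aimp2 and Eef1e1 in the multisynthetase complex. Growing T cells need charged transfer RNA for protein synthesis, and uncharged transfer RNA is the signal that the kinase GCN2 reads when an amino acid runs short.

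Levels are in CPM, for which each gene's count was divided by the total of its library and scaled to a common depth. The totals were 4080791 (IL-33) and 1573707 (PBS) counts, so that 1 count was worth 0.245 CPM and 0.635 CPM. A fold against 0 counts was taken against a floor of 3 counts, which is 0.735 CPM with IL-33 and 1.91 CPM with PBS; the 95% Poisson interval of 0 counts, drawn in the plot of levels, reaches 2.34 CPM with PBS. Ratios are CPM with IL-33 over CPM with PBS, with the exact conditional (Clopper-Pearson) 95% interval. Genes with at least 5 CPM in either library were compared, and a gene was called higher or lower at 2-fold or more on log2(CPM + 1), which makes the differences of low genes look smaller than they are. Treg markers were present in both libraries, with Ctla4 at 6186 and 6246 CPM, though Foxp3 had 40 counts against 1. Of the other cell types, fibroblast markers summed to 0 against 66.1 CPM, with 3 of 6 at 0 in both libraries and Col3a1 highest (0 and 78 counts). Macrophage and monocyte markers summed to 21.8 against 42.6 CPM, with 2 of 8 at 0 in both and Lyz2 highest (78 and 61 counts). Dendritic cell markers summed to 16.4 against 31.8 CPM, with 2 of 6 at 0 and Xcr1 the highest with IL-33 (42 and 12 counts). Xcr1 went against its list: of the 3 dendritic cell markers over 5 CPM, 2 were called lower, with a lowest log2 fold of -3.71. The lists for muscle (Mylpf highest), endothelium (Pecam1), B cells (Cd79b), CD8 T and NK cells (Cd8b1) and neutrophils (Csf3r) summed to 4.41 to 49.3 CPM with IL-33 and 5.72 to 52.1 CPM with PBS. Their part in the results below was not tested.

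The summed level of cytosolic enzymes was slightly lower and that of mitochondrial enzymes higher with IL-33. The 20 cytosolic genes summed to 5896 counts with IL-33 and 2596 with PBS. As summed CPM these were 1445 (95% Poisson interval 1408 to 1482) and 1650 (1587 to 1714), a ratio of 0.876 (0.836 to 0.918). With the TMM scaling described below, this cytosolic ratio was 0.952 (0.909 to 0.998). The 8 enzymes of the multisynthetase complex had a summed ratio of 0.800 (0.753 to 0.850), and the 12 other cytosolic enzymes 0.995 (0.925 to 1.07). The median of all genes compared also lay below 0, at a log2 fold of -0.08. The 16 mitochondrial genes summed to 890 and 229 counts, or 218 CPM (204 to 233) against 146 CPM (127 to 166), a ratio of 1.499 (1.29 to 1.74). Mitochondrial enzymes thus took 13.1% of all synthetase counts with IL-33 (exact binomial interval 12.3 to 13.9) and 8.11% with PBS (7.13 to 9.17). Set against the cytosolic counts of its own library, the mitochondrial sum was 1.71 times higher with IL-33 (1.47 to 2.00), a value that no scaling of the libraries can change. In these bulk samples, a change in the share of some cells and in the RNA level per cell cannot be told apart.

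**Figure D1:**
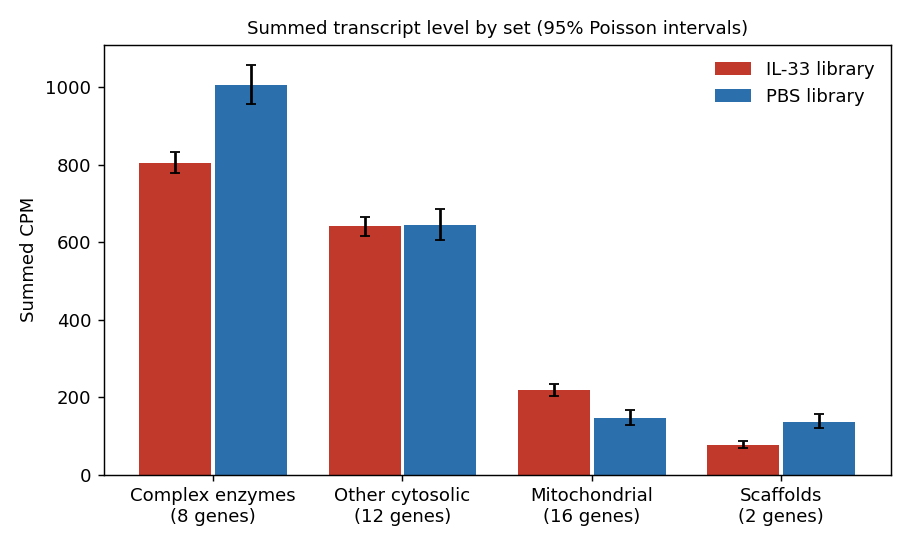
Summed CPM of 8 enzymes of the multisynthetase complex, 12 other cytosolic enzymes, 16 mitochondrial enzymes and 2 scaffold proteins, with 1 bar for each library and 95% Poisson intervals as error bars. Complex enzymes stood at 805 against 1006 CPM, other cytosolic enzymes at 640 against 644 CPM, and mitochondrial enzymes at 218 against 146 CPM.

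Of the 38 members, 34 reached 5 CPM in a library. Among these, 7 were 2-fold higher with IL-33, 5 were 2-fold lower and 22 lay within 2-fold. Over all 9005 genes compared, 15.5% were higher and 16.3% lower, so the counts of members in either direction were near the background. The median log2 fold of the 34 members was 0.18, beside -0.08 over all genes compared. The background differed with the level, and thinly counted genes scattered most (SD of the log2 fold 1.96 under a mean of 20 CPM and 0.42 at 200 CPM or more). With a mean under 20 CPM, 29.5% of genes were higher and 27.2% lower, and with a mean of 20 to 50 CPM the shares were 13.1% and 17.8%. From 50 to 200 CPM they were 4.43% and 6.48%, and at 200 CPM or more 1.21% and 1.01%. Members are read against these shares below. Scaling by trimmed mean of M-values (TMM) multiplies every ratio by a constant worth 0.12 on the log2 scale, and less than that for low genes once the pseudocount is added.

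**Figure D2:**
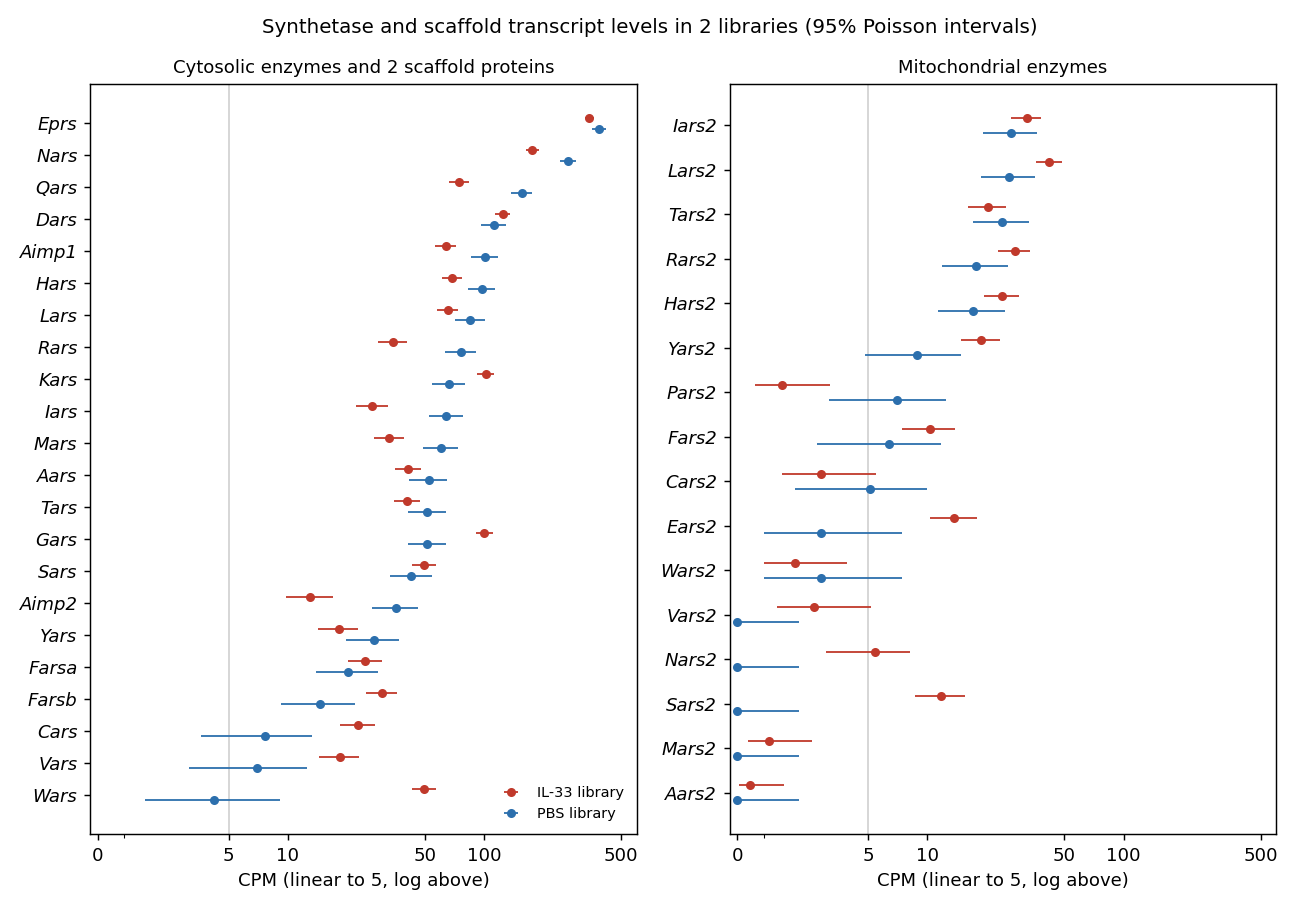
CPM of each of the 38 members in the IL-33 and the PBS library, with 95% Poisson intervals; the axis is linear up to 5 CPM and logarithmic above, and the grey line marks 5 CPM. Wars, at 49.5 against 4.45 CPM, has the widest gap among cytosolic genes, and 5 mitochondrial genes lie at 0 with PBS.

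In the multisynthetase complex 8 of the 10 members had ratios whose intervals lay below 1, and 4 of these were 2-fold lower. The share of all genes with such intervals was not computed, so the 8 have no background here. With a mean of 50 to 200 CPM, 40.8% of all genes had a log2 fold above 0. Of the 10 complex members, 2 had a log2 fold above 0, 0 were 2-fold higher, and the interval lay above 1 for 1. The median log2 fold was -0.76 for these 10 genes. The lower members were thinly to moderately counted (mean 24.3 to 115 CPM), a range in which 6.48% to 17.8% of all genes were called lower. The complex was set apart from the other enzymes after the values were seen, so the count describes these libraries and is no test.

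Iars, which charges isoleucine transfer RNA, stood at 27.0 CPM with IL-33 and 64.2 CPM with PBS (110 and 101 counts). The ratio was 0.420 (0.318 to 0.556), and the gene lies on chromosome 13, 49682100 to 49734267 (GRCm38, GENCODE M21). Rars, the arginine enzyme, was at 34.3 against 76.3 CPM, giving a ratio of 0.450 (0.350 to 0.579; chromosome 11, 35808381 to 35834506). For both genes the counting intervals of the 2 libraries were far apart. Qars, the glutamine enzyme, was at 74.5 against 156 CPM, giving a ratio of 0.479 (0.403 to 0.569; chromosome 9, 108507706 to 108515941). Its call rests on the scaling: the log2 fold was -1.05 by library total and -0.93 by TMM. Mars, the methionine enzyme, followed at 32.8 against 60.4 CPM, giving a ratio of 0.544 (0.415 to 0.715) that lay within 2-fold.

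The remaining enzymes of the complex differed less. Lars, for leucine, stood at 65.2 against 85.1 CPM, giving a ratio of 0.766 (0.620 to 0.949). Eprs, a fused enzyme that charges both glutamate and proline, was the gene of the set with the most counts, 1404 against 608. Its levels of 344 and 386 CPM gave a ratio of 0.891 (0.809 to 0.981), and its log2 fold of -0.17 is little larger than the shift that scaling makes. Dars, for aspartate, was at 125 against 112 CPM, giving a ratio of 1.12 whose interval (0.938 to 1.33) held 1. Kars was the member of the complex whose interval lay above 1, at 102 against 66.1 CPM, giving a ratio of 1.54 (1.24 to 1.93). Kars charges lysine in the cytosol and also in mitochondria.

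Of the scaffold genes, Aimp2 was called lower and Aimp1 lay within 2-fold. Aimp2, a core scaffold of the complex, had 53 counts with IL-33 and 56 with PBS, which is 13.0 against 35.6 CPM. Its ratio of 0.365 (0.246 to 0.541) was the lowest of the complex (chromosome 5, 143902704 to 143909847). Aimp1, which is also processed into a secreted cytokine, was at 64.0 against 101 CPM, giving a ratio of 0.633 (0.518 to 0.776). The third scaffold gene, Eef1e1, is no member but belongs to the complex, and stood at 43.9 against 55.9 CPM, giving a ratio of 0.784 (0.604 to 1.02) that held 1. Exons of Aimp2 overlap those of Eif2ak1 on the opposite strand over 487 bases, and Eif2ak1 had 220 against 82 counts, a ratio of 1.03.

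Of the 12 cytosolic enzymes outside the complex, 3 were higher, 0 were lower and 9 were within 2-fold, with a median log2 fold of 0.24. Over all genes 15.5% were higher, and 29.5% of those with a mean under 20 CPM, where 2 of the 3 lie, so this count is near the background. The median of the 8 complex enzymes was -0.62, so the groups differed by -0.86, and by -0.83 with Wars left out. The interval of the ratio lay above 1 for 5 of the 12 and below 1 for 3, and the shares of all genes with such intervals were not computed. Transcript length, which was weakly tied to the fold over all genes (Spearman rho -0.14 across 5539 genes with a mean of at least 20 CPM, which are no independent replicates), was alike in these groups. The median longest coding transcript was 2881 nt for complex enzymes and 2870 nt for the other enzymes. The level was not alike: the median gene had a mean of 79.6 CPM in the complex group and 36.4 CPM in the other. With each fold read against genes of like length, the groups differed by -0.81.

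Wars, which charges tryptophan and is known as a gene that interferon-gamma induces, differed most among the enzymes detected in both libraries. It had 202 counts with IL-33 and 7 with PBS, or 49.5 CPM (42.9 to 56.8) against 4.45 CPM (1.79 to 9.16). The ratio was 11.1, with an interval from 5.30 to 28.0 that the 7 counts keep wide. The gene lies on chromosome 12, 108860030 to 108894174, and no exon of another annotated gene overlaps it. Per kilobase of transcript, Wars ranked 9 of 38 with IL-33 and 31 of 38 with PBS. At its mean level of 27.0 CPM, 13.1% of all genes were called higher, and Wars reached 5 CPM with IL-33 alone.

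Cars, the cysteine enzyme, and Vars, the valine enzyme, were the other higher members of this group, both thinly counted with PBS. Cars had 93 against 12 counts, 22.8 against 7.63 CPM, giving a ratio of 2.99 (1.63 to 5.99; chromosome 7, 143557230 to 143600090). Vars had 75 against 11 counts, 18.4 against 6.99 CPM, giving a ratio of 2.63 (1.39 to 5.49; chromosome 17, 35000987 to 35016322). With means under 20 CPM, both lie where 29.5% of genes were called higher, and Vars fell within 2-fold when 5 CPM was added in place of 1 (log2 fold 0.96). Next to them stood Farsb and Gars, just inside 2-fold. Farsb, the beta subunit of the phenylalanine enzyme, was at 30.1 against 14.6 CPM, giving a ratio of 2.06 (1.31 to 3.37) and a log2 fold of 0.996. Its partner subunit Farsa was at 24.8 against 20.3 CPM, giving a ratio of 1.22 whose interval (0.811 to 1.87) overlapped that of Farsb. Gars, the glycine enzyme of cytosol and mitochondria, was at 100.5 against 51.5 CPM, giving a ratio of 1.95 (1.53 to 2.51). By TMM, Farsb and Gars were both called higher, at log2 folds of 1.11 and 1.07.

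The other free cytosolic enzymes were close to or below the PBS level. Nars, for asparagine, was the best counted of them, at 176 against 268 CPM (719 and 421 counts), a ratio of 0.659 (0.583 to 0.745). Hars, for histidine, was at 68.9 against 97.2 CPM, giving a ratio of 0.708 (0.580 to 0.868). Yars, for tyrosine, was at 18.1 against 27.3 CPM, giving a ratio of 0.664 whose upper limit, 0.990, nearly reached 1. These 3 were the enzymes of the group whose intervals left out 1 on the low side. Aars, for alanine, and Tars, for threonine, had near-equal ratios of 0.790 (0.603 to 1.04) and 0.790 (0.602 to 1.04), both holding 1. Sars, for serine, was at 49.3 against 42.6 CPM, giving a ratio of 1.16 (0.873 to 1.55).

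**Figure D3:**
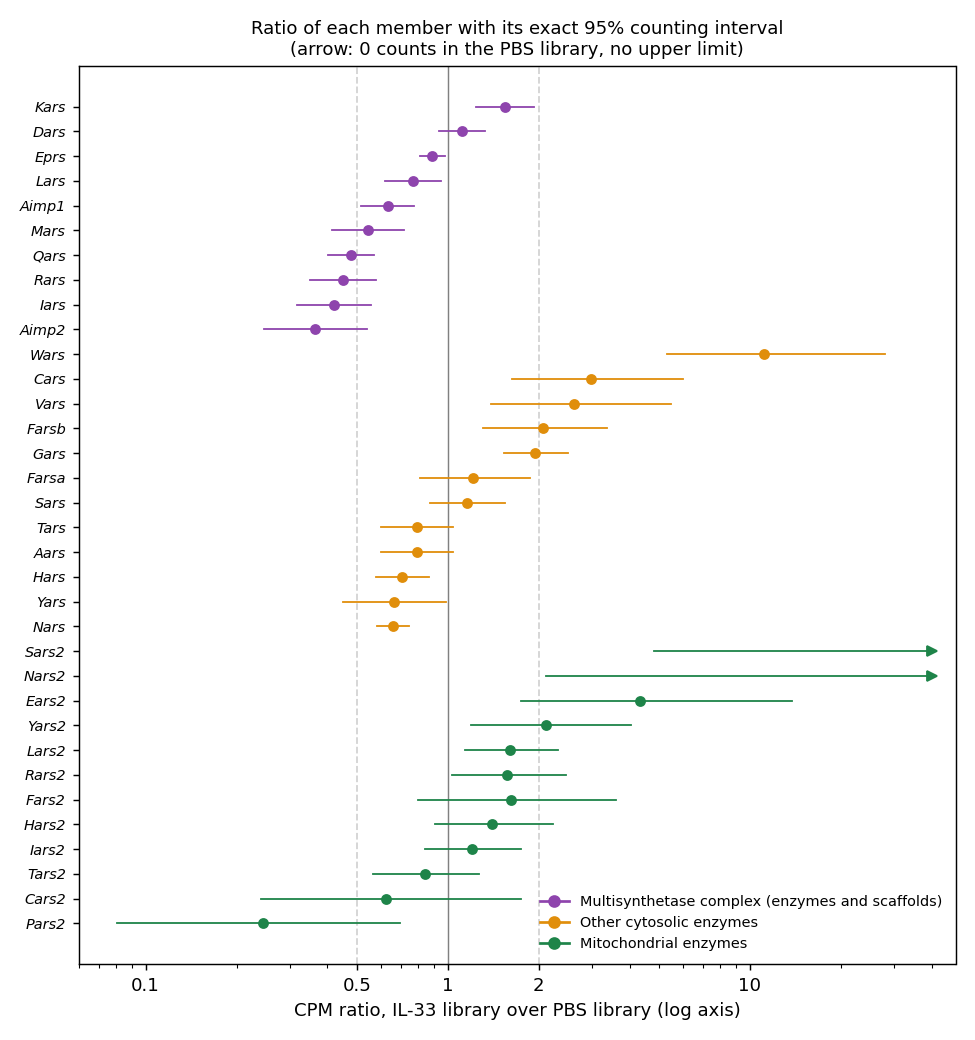
CPM ratio of the IL-33 library over the PBS library for the 34 members compared, on a log axis, with exact 95% counting intervals; dashed lines mark 2-fold and arrows mark genes at 0 counts with PBS. Within the multisynthetase complex 8 of 10 intervals lie below 1, a count whose share over all genes was not computed. Wars has the highest bounded ratio at 11.1.

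Synthetases fall into class I and class II by the fold of their active site. Of the 9 cytosolic class I genes, 3 were higher (Cars, Vars, Wars), 3 were lower (Iars, Qars, Rars) and 3 were within 2-fold, beside 15.5% higher and 16.3% lower over all genes and 29.5% higher under a mean of 20 CPM, where Cars and Vars lie. All 10 cytosolic class II genes lay within 2-fold, with a median log2 fold of 0.18 and a range from -0.60 to 0.996. These counts rest on the scaling: by TMM the class II genes Farsb and Gars were called higher, and Qars fell within 2-fold. Eprs, which joins an enzyme of each class, is in neither count. The difference between the classes was not tested.

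Many cytosolic synthetase genes are known targets of ATF4, the transcription factor that acts when amino acids are scarce, through a short element named the C/EBP-ATF response element. The letters TGATGNAA, on either strand, were sought from 250 bases before to 50 after the start of each gene in the RefSeq promoter table for GRCm38.p6, which held 29 of the 38 members. The element was present in 5 of these 29, namely Aars, Gars, Iars, Tars and Yars, and in 4.51% of all 27025 genes of the table. All 5 belong to the 8 matched genes listed as ATF4 targets. The stretches are shown because they mark genes that one regulator is known to act on, so that their values can be read together; capitals mark the element, and a second match in Aars, from base 10 after the start, is not shown.
Aars, GRCm38.p6, chr8:111033688-111033757, plus strand: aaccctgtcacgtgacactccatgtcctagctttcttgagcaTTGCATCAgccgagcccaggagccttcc
Gars, GRCm38.p6, chr6:55037929-55037998, plus strand: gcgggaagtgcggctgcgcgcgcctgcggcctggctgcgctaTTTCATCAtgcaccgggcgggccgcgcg
Iars, GRCm38.p6, chr13:49682080-49682149, plus strand: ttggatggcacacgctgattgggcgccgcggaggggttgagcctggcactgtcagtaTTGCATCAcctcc
Tars, GRCm38.p6, chr15:11399646-11399715, minus strand: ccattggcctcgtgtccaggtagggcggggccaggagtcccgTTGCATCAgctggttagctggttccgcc
Yars, GRCm38.p6, chr4:129189853-129189922, plus strand: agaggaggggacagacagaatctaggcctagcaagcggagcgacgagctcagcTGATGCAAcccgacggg

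Genes that hold the element differed in direction. Their ratios ran from 0.420 for Iars through 0.664 for Yars, 0.790 for Aars and 0.790 for Tars to 1.95 for Gars. Of all 13 members listed as ATF4 targets, 3 were higher (Cars, Vars, Wars), 1 was lower (Iars) and 9 were within 2-fold. Over all genes compared 15.5% were higher and 16.3% lower, and 29.5% were higher under a mean of 20 CPM, where Cars and Vars lie. The summed CPM of the 13 had a ratio of 0.890 (0.841 to 0.942). The 7 other cytosolic enzymes had a ratio of summed CPM of 0.847 (0.781 to 0.920). A match is only a description of these letters and shows no binding. Other motifs were searched in the same windows: the E-box CACGTG was in 5 of 29 members and 8.09% of all genes, and the ETS site CCGGAAGT in 4 and 4.31%. The NRF1 site GCGCNTGCG was in 10 and 7.12%, the interferon elements GAAANNGAA in 2 and 9.76% and TTCNNNGAA in 3 and 9.55%, and the cAMP element TGACGTCA in 0 and 2.03%. The E-box in Aars and an NRF1 match in Gars lie inside the stretches shown above, and none of the matches of these other motifs overlaps the element in capitals there. Cars, Vars and Wars are not among the 29 matched genes.

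The summed level of the mitochondrial synthetases was higher with IL-33, and most of the single genes were thinly counted. Of 16 genes, 12 reached 5 CPM in a library, and 4 of these were higher, 1 was lower and 7 were within 2-fold. Over all genes compared 15.5% were higher and 16.3% lower. Genes with 5 CPM in 1 library alone had to differ to be compared, so these counts describe and do not support a direction. The 5 mitochondrial genes with a mean of 20 to 50 CPM lay within 2-fold without exception, with a median log2 fold of 0.46, beside -0.12 over all 2023 genes of that range. The 7 compared genes with a mean under 20 CPM held the 4 higher and the 1 lower, in a range where 29.5% of all genes were higher and 27.2% lower.

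The best counted mitochondrial genes differed modestly. Lars2, for leucine, was at 41.9 against 26.1 CPM (171 and 41 counts), a ratio of 1.61 (1.14 to 2.32). Rars2, for arginine, was at 27.9 against 17.8 CPM, giving a ratio of 1.57 (1.03 to 2.47). These were the only genes of the 5 whose intervals left out 1. Hars2 was at 24.0 against 17.2 CPM, giving a ratio of 1.40 (0.906 to 2.23), and Iars2 at 32.1 against 26.7 CPM, giving a ratio of 1.20 (0.844 to 1.75). Tars2, for threonine, was at 20.3 against 24.1 CPM, giving a ratio of 0.842 (0.567 to 1.27). Iars2 shares 2034 exon bases with Rab3gap2 on the opposite strand, which had 255 against 27 counts, and without stated strand its reads cannot be told apart from those of that gene.

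Low mitochondrial genes held the larger differences. Sars2, the serine enzyme, had 48 counts with IL-33 (11.8 CPM) and 0 with PBS, at least 6.17-fold higher when 3 counts are set in place of the 0 (chromosome 7, 28741992 to 28753871). The exact interval of its ratio, which takes in the error of both counts, began at 4.83. Nars2, the asparagine enzyme, reached 22 counts where PBS had 0, at least 2.83-fold higher on the same floor, with an exact interval from 2.11 upward (chromosome 7, 96951505 to 97064758). Ears2, the glutamate enzyme, had 56 against 5 counts, 13.7 against 3.18 CPM, giving a ratio of 4.32 (1.74 to 13.8; chromosome 7, 122037213 to 122067263). The PBS counts behind these values are few, and 29.5% of genes at this level were called higher. Yars2, for tyrosine, had 77 against 14 counts, a ratio of 2.12 (1.19 to 4.06) with a log2 fold of 1.01 that lies at the threshold (0.78, within 2-fold, with a pseudocount of 5 CPM). Fars2 had 42 against 10 counts, a ratio of 1.62 (0.800 to 3.62), and Cars2 had 13 against 8, a ratio of 0.627 (0.241 to 1.74), and both intervals held 1.

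Of the compared mitochondrial members, 1 was called lower. Pars2, the proline enzyme, had 7 counts with IL-33 and 11 with PBS, 1.72 against 6.99 CPM, giving a ratio of 0.245 (0.0807 to 0.693), and its call was lost with a pseudocount of 5 CPM (log2 fold -0.84). Aars2, Mars2, Vars2 and Wars2 did not reach 5 CPM, with 2, 5, 12 and 9 counts with IL-33 and 0, 0, 0 and 5 with PBS.

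The cytosolic median log2 fold was -0.25 and the mitochondrial median 0.62, a difference of 0.87. The mitochondrial median is over 12 genes, of which Ears2, Nars2 and Sars2 reached 5 CPM with IL-33 alone, and Cars2 and Pars2 with PBS alone. Over all 16 genes without a floor this median was also 0.62. The cytosolic direction depends on the measure, since the mean over the same 20 genes was 0.10, with Wars at 3.21 as the highest value. The mitochondrial mean was 0.79. The median longest coding transcript of the compared genes was 2870 nt for cytosolic and 2926 nt for mitochondrial enzymes, so the sets had like lengths. They did not have like depth: the median gene had a mean of 46.6 CPM in the cytosolic and 11.2 CPM in the mitochondrial set. Among genes with a mean of 20 to 50 CPM, the median log2 fold was -0.33 for 9 cytosolic and 0.46 for 5 mitochondrial enzymes.

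For 13 amino acids the members include 1 cytosolic and 1 mitochondrial gene of matching name, which allows a comparison within an amino acid; Eprs and the phenylalanine genes, which have no such single partner, are left out. In 11 of these 13 pairs the mitochondrial gene had the higher log2 fold. In 5 of these 11 (Aars2, Mars2, Nars2, Sars2 and Vars2) it had 0 counts with PBS, Aars2 and Mars2 on 2 and 5 counts with IL-33, so the number of pairs describes these libraries and supports no direction. The exceptions were cysteine (Cars 1.46, Cars2 -0.54) and tryptophan (Wars 3.21, Wars2 -0.38). Levels between genes can be compared only per length, here as CPM per kilobase of the longest coding transcript. On that scale the cytosolic gene was the more abundant in 12 of 13 pairs with IL-33 and in 12 of 13 with PBS. The gap was narrow with IL-33 for isoleucine (Iars at 1.04 times Iars2), arginine (1.09 times) and tyrosine (0.927 times), and with PBS the same quotients were 2.97, 3.80 and 2.96. The length chosen matters here: per kilobase of all exons joined, the quotients for isoleucine, arginine and tyrosine were 1.42, 1.05 and 0.509 with IL-33 and 4.05, 3.68 and 1.63 with PBS.

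**Figure D4:**
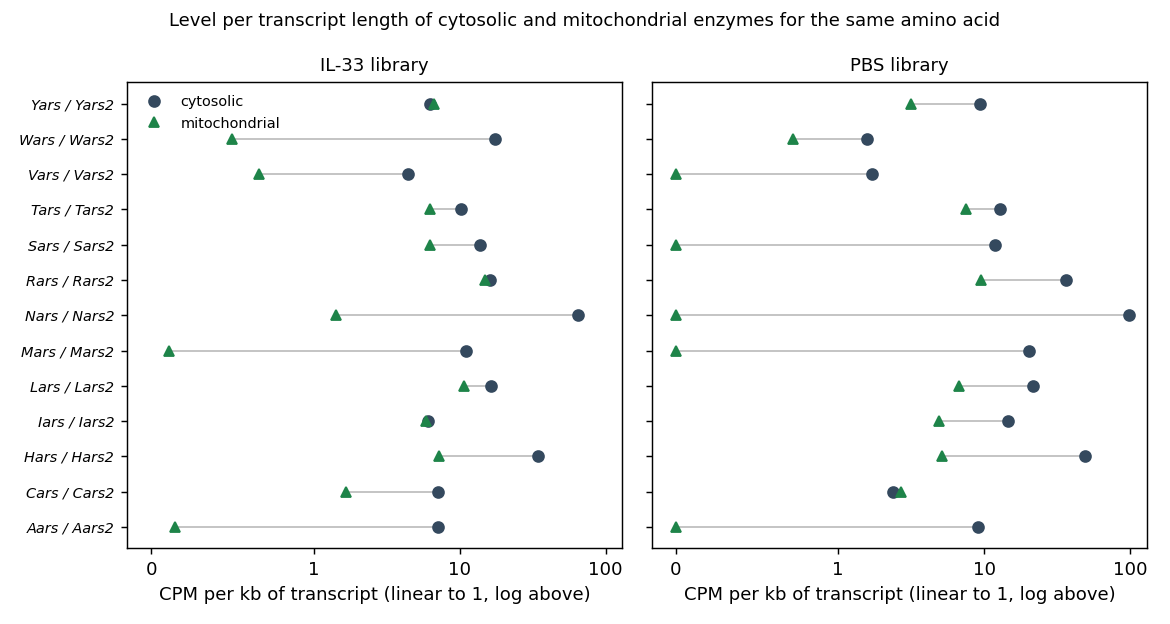
CPM per kilobase of the longest coding transcript for the cytosolic (circle) and mitochondrial (triangle) gene of 13 amino acids, in each library; the axis is linear up to 1 and logarithmic above. Yars and Yars2, Rars and Rars2, and Iars and Iars2 nearly coincide with IL-33 and lie 2.96 to 3.80 times apart with PBS on this length; with all exons joined, Yars is at 0.509 times Yars2 with IL-33.

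Within each library the order of members by level per length was led by a few cytosolic genes. Eprs (70.1 CPM per kilobase), Nars (64.2) and Dars (57.3) were highest with IL-33, and Nars (97.5), Aimp1 (89.7) and Eprs (78.8) with PBS. The length chosen matters for this order: with the union of all exons as length, Eprs ranked 6 and 7 and Nars 1 and 1 in the IL-33 and PBS libraries. The median cytosolic gene stood 2.90 times above the median mitochondrial gene with IL-33 and 7.02 times with PBS, where 5 mitochondrial genes were at 0. With union lengths these quotients were 4.93 and 14.9.

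Genes that act beside the synthetases had no common direction. In the ATF4 amino acid response list, 2 of 20 compared genes were higher and 6 lower (10% and 30%), with a median log2 fold of -0.36. Over all genes compared 15.5% were higher and 16.3% lower. Under a mean of 20 CPM these shares were 29.5% and 27.2%, and the median level of this list was 15.2 CPM. Slc3a2, the heavy chain shared by several amino acid transporters, was at 190 against 82.0 CPM, giving a ratio of 2.32 (1.92 to 2.81), while Mthfd2, of mitochondrial folate metabolism, was at 45.1 against 114 CPM, giving a ratio of 0.396 (0.321 to 0.490). Aldh18a1, which starts proline synthesis, had a ratio of 1.89 (1.43 to 2.53). Among factors that pass charged transfer RNA to the ribosome, 0 of 6 were called in either direction. Eef1g was at 457 against 592 CPM, giving a ratio of 0.772 (0.713 to 0.836), Eef1d at a ratio of 1.22 (1.05 to 1.41) and Eef1b2 at 1.10 (0.995 to 1.22).

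Genes that make and mature transfer RNA were also divided. Of 19 compared genes of transcription by RNA polymerase III, 6 were higher and 2 lower (31.6% and 10.5%), with a median log2 fold of 0.08. The median level of this list was 21.9 CPM. For each list of this paragraph, the shares over all genes compared were 15.5% higher and 16.3% lower. Under a mean of 20 CPM they were 29.5% and 27.2%. Gtf3c6, a subunit of the initiation factor TFIIIC, was at 111 against 21.6 CPM, giving a ratio of 5.13 (3.62 to 7.495). Brf1, of the factor TFIIIB, had a ratio of 3.36 (2.13 to 5.56), and Gtf3c5, another TFIIIC subunit, was lower at 0.290 (0.205 to 0.410). Thus subunits of 1 factor, TFIIIC, differed in opposite directions. Among processing and export genes 1 of 15 was higher and 2 were lower. The genes named here are those farthest from 0 with a mean of at least 20 CPM, and all lay within 2-fold. Xpot, the export receptor of transfer RNA, was at 1.72 (1.23 to 2.46). Trnt1, which adds the CCA end, was at 0.623 (0.532 to 0.732) and the RNase P subunit gene Pop4 at 0.623 (0.470 to 0.829). Among charging partners and editing factors 0 of 7 were higher and 1 was lower. The genes named by the same rule again lay within 2-fold, with Pstk at 1.90 (1.38 to 2.67), Ptrh2 at 0.582 (0.412 to 0.828) and Dtd1 at 0.717 (0.558 to 0.925).

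Exons of 11 of the 38 members overlap those of another gene in the table, and reads of such genes may have been split or shared in the counting. Besides Aimp2 and Iars2 given above, these include Ears2 with Ubfd1 (89 bases; Ubfd1 at 223 against 63 counts), Hars with Hars2 (195 bases), Farsb with Sgpp2 (248 bases), Mars with Ddit3 (68 bases) and Aars with Exosc6 (1326 bases on the same strand). Fars2 shares 501 exon bases with Nrn1 on the opposite strand, which had 146 against 32 counts, a ratio of 1.76 (1.19 to 2.67). Across the 34 members compared, transcript length and log2 fold had a Spearman rho of 0.01, a description over genes that share the same libraries.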

How the data were processed

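RNA was measured in 1 library of muscle Treg cells per treatment. The authors deposited raw counts, whole numbers per gene symbol. TopHat2 2.0.10, Cufflinks 2.2.1 and the mm10 genome are named in the submitters' processing notes. For the counting program, annotation and strand, each is not given in the sources used here. Amplified cDNA of poly(A) RNA was sequenced, per the labels' protocols, which name no molecular identifiers, so reads are not independent molecules. Exons of 11 of the 38 members overlap another gene of the table. Every table column was mapped by its name (0 unused), and 0 rows lacked a gene name.

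From the counts, CPM, exact 95% intervals and log2 folds with a pseudocount of 1 CPM were computed over all genes; there was no test. The members and gene lists were chosen with earlier results of these data known. Named genes are all members over 5 CPM, from each related list the 3 non-members with a mean of at least 20 CPM farthest from 0, and the highest marker of other cell types. All members matched GENCODE M21 by symbol; positions and lengths come from it. Promoters are RefSeq's, matched by symbol (Mars as Mars1). The calculation was tested on simulated Poisson counts, and only genes with a mean of at least 20 CPM were checked. Error from amplification and the behaviour of lower genes were not covered. Python 3.11.15, numpy 2.4.6, pandas 2.3.3, scipy 1.17.1, matplotlib 3.10.9, R 4.3.3 and edgeR 4.0.16 (scaling factors only) were used. Alternatives covered the scaling, pseudocount, floor, fold threshold, set membership and transcript length. One gene outside the member list is not reported here.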

Additional observations from a re-analysis of the deposited data

How the results depend on the processing

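No paired analysis was possible because each group has 1 library and no result comes from a test, and no library could be left out. Of 72 alternative values for 11 results, 63 stayed near the reported value. Near means within its counting or member spread. For counts of called members and quotients of level per length it means within a set factor of 1.5, which is no measure of spread. By the member spread, a cytosolic median of -0.08 relative to genes of like length still counted as near -0.25. Some of the 72 values could hardly move. A change of scaling shifts both medians of a difference alike, apart from the pseudocount and the floor. All 20 cytosolic genes pass the floor of 5 CPM. The count of 63 is therefore no measure of how firm the results are. With a floor of 20 CPM, 2 members were higher in place of 7; at a threshold of 1.5-fold, 13 were higher and 8 lower in place of 7 and 5. The cytosolic median log2 fold of -0.25 became 0.10 as a mean. Wars, at 3.21, was the highest value in that mean, and no mean without Wars was computed. The summed cytosolic ratio of 0.876 was 0.952 by TMM, 0.948 by median-of-ratios scaling and 0.811 without Gars and Kars. The settings on Wars, on genes of like length and on the complex were chosen after seeing the data. With union exon lengths the cytosolic to mitochondrial quotient of medians was 4.93 with IL-33 and 14.9 with PBS, in place of 2.90 and 7.02. No compared member changed sign under the scaling, pseudocount, floor or length settings. Calls changed for Farsb, Gars and Qars under TMM, median-of-ratios and length settings, for Farsb and Gars with the 50 highest genes left out of the totals, for Farsb with a pseudocount of 0.5, and for Vars, Pars2 and Yars2 with a pseudocount of 5. Depth limits the mitochondrial set most: a PBS count of 0 was set at a floor of 3 counts, or 1.91 CPM.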
